A study of Mus musculus with 33 samples.

Results

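Embryoid bodies that received 15 ng/mL activin A were compared with untreated embryoid bodies of the same experiment. The members are the 2 activin libraries and the 2 control libraries of the dose set, 4 of the 33 libraries in the series, chosen by their labels. Embryoid bodies are aggregates in which mouse embryonic stem cells differentiate. All 4 came from cells kept free of serum, were dispersed on day 2 and were collected on day 4. The activin A group had the factor at 15 ng/mL from day 2 to day 4, and the untreated group had none. The libraries are DP-seq libraries, in which a defined set of heptamer primers amplifies the cDNA, and gene levels are unique read counts summed over the transcripts of a gene. The dose set also holds 1 library at 3 ng/mL and 1 at 100 ng/mL, and 1 library of embryoid bodies given SB-431542, a chemical inhibitor of the type I receptors for Activin, Nodal and TGF-β. The activin libraries at the other doses enter the last comparison, and the SB-431542 library enters only the fits of 6 or 7 libraries. The labels name no cell line.

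Activin A is a secreted ligand of the TGF-β family. It binds type II and type I serine/threonine kinase receptors, and these phosphorylate Smad2 and Smad3, which enter the nucleus with Smad4 and act with partners such as Foxh1. Nodal uses the same receptors together with a co-receptor, Cripto or Cryptic, and in the embryo it induces the primitive streak, mesoderm and endoderm, while epiblast cells that lack the signal turn to anterior neural fates. The pathway switches on its own antagonists, among them the Lefty proteins and Cerberus.

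Neither group holds independent cultures that the labels describe as such. The activin libraries are labelled as technical replicates 1 and 2, so n = 2 is 1 sample measured 2 times. The control replicates differ in preparation, since yeast transcripts were added to replicate 2. Library totals ran from 13053122 to 15695756 counts and 13080 to 14572 genes had a count. Control replicate 2 stood apart from the other 3 libraries. The log2 ratio of the control libraries had an SD of 1.97 over 10920 genes with at least 10 counts on average, against 0.448 over 10991 genes for the activin libraries, and the ratio of control replicate 1 to activin replicate 1 or 2 had SDs of 0.843 and 0.834. Gapdh, a glycolytic enzyme gene used as a reference, had 3763 CPM (its count scaled to a library total of 1000000) in control replicate 1 and 1.15 CPM in control replicate 2. The main comparison therefore took control replicate 1 as the reference, as the rule for the members asks, and used control replicate 2 as a check.

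**Figure D1:**
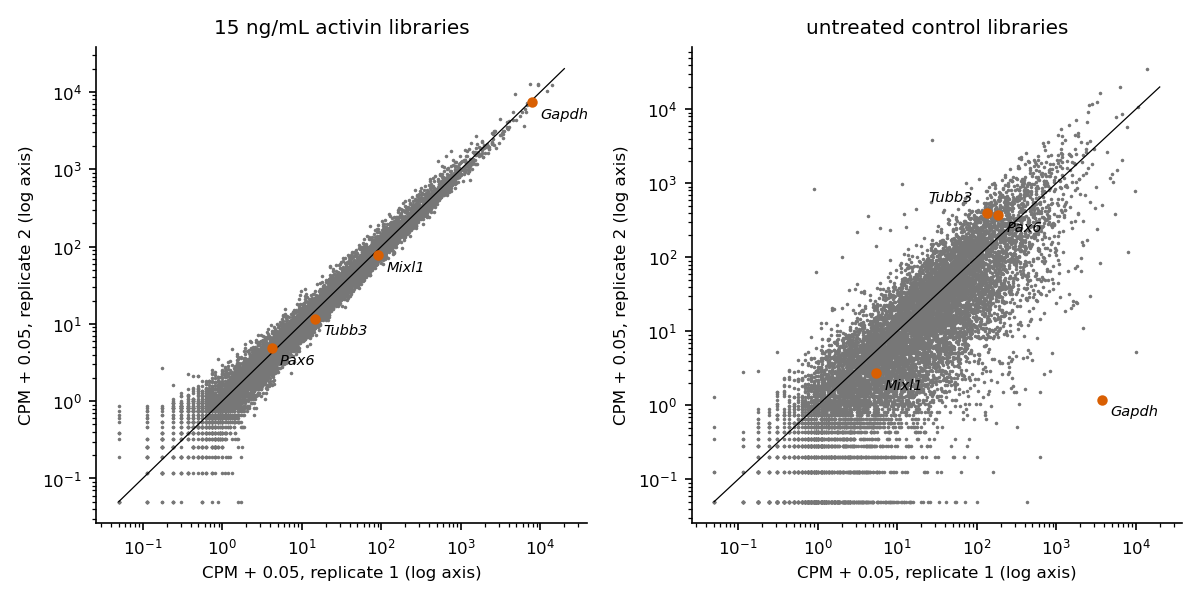
Each point is a tested gene, with its CPM plus 0.05 in replicate 1 on the horizontal and in replicate 2 on the vertical log axis, for the activin libraries (left) and the control libraries (right); the line marks equal levels. The activin points lie along the line (SD of the log2 ratio 0.448) and the control points spread widely (1.97), with Gapdh at 3763 and 1.15 CPM.

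Of 11655 genes tested, 875 (7.51%) were higher and 769 (6.6%) lower with activin (edgeR quasi-likelihood test, Benjamini-Hochberg adjusted p under 0.05). By at least 2-fold, 588 were called higher and 492 lower, and by at least 8-fold 55 and 92. Of the calls, 65 higher genes had fewer than 10 counts in control replicate 1 and 95 lower genes had fewer than 10 in both activin libraries, so they passed the filter on low counts only through the group where they are high. Several gene lists below hold such genes, so their counts of calls are partly set by the filter. The p-values set 1 activin sample against 1 control sample and measure the difference against technical spread, and the lone control was assumed to vary like the activin pair. DESeq2 on the libraries of the main test kept only 37.7% of the calls. Of 161 genes printed in the text, 44 lost their call in it. With both control libraries in the fit no gene passed (smallest adjusted p = 0.599, 657 genes at unadjusted p under 0.05), while DESeq2 on the same 4 libraries called 48 higher and 122 lower. In CPM, both activin libraries also lay above control replicate 2 for 715 (81.7%) of the genes called higher, against 57.9% of all tested genes. For the genes called lower, both lay below it for 504 (65.5%), against 34.6% of all tested genes. Both checks use the same activin libraries. Lying beyond control replicate 2 as well was thus the usual case for a called gene, so non-overlap of the groups, where given below for single genes, is a description. In the text, "called", "rose" and "fell" refer to the test against control replicate 1, and each ± gives the standard error of a log2 change.

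**Figure D2:**
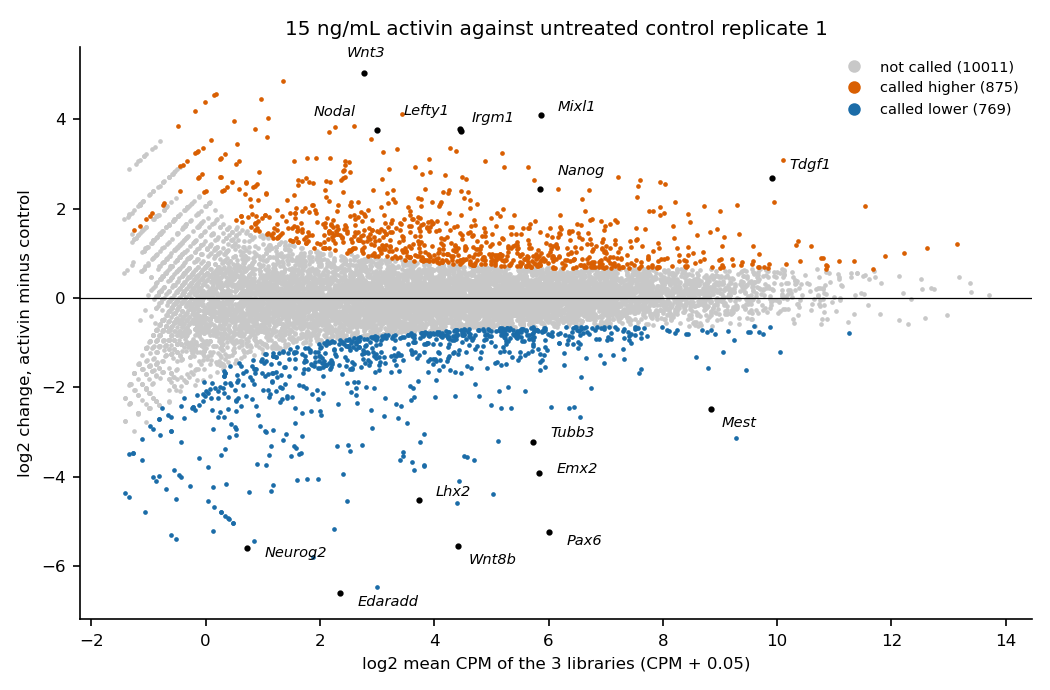
Log2 change of activin against control replicate 1 (vertical) by the log2 mean CPM of the 3 libraries (horizontal), 1 point for each of 11655 tested genes. Orange points are the 875 genes called higher and blue points the 769 called lower; genes with 0 counts in a group are drawn at the fold that a floor of 3 counts over the group gives.

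Of the 5 genes named as markers of the comparison, 3 rose and 2 fell. Mixl1, a paired-type homeobox gene active in the streak, stood at 5.39 and 2.68 CPM in control replicates 1 and 2 and at 91.4 and 77.8 CPM in activin replicates 1 and 2. The groups did not overlap, and the log2 change was 4.10 ± 0.32 (adjusted p = 1.6e-34), which is 17.1-fold. Lefty1, a secreted Nodal antagonist gene, went from 2.6 and 0.383 CPM to 29.2 and 34.3 CPM (3.74 ± 0.35, 13.4-fold). Gsc, the organizer homeobox gene Goosecoid, had 1.88 and 0.0766 CPM in the controls and 11.5 and 14.2 CPM with activin (2.90 ± 0.39, adjusted p = 9.2e-12). Both activin libraries were above both controls for these 3 genes. Lhx2, a LIM homeobox gene of the early forebrain and eye field, fell from 36.7 and 66.1 CPM to 1.91 and 0.959 CPM (−4.53 ± 0.32, adjusted p = 6.1e-42). Tubb3, the tubulin gene of young neurons, had 133 and 402 CPM in the controls and 14.6 and 11.6 CPM with activin (−3.22 ± 0.24, adjusted p = 2.0e-36). In whole embryoid bodies, fewer cells of a type and less RNA per cell cannot be told apart.

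**Figure D3:**
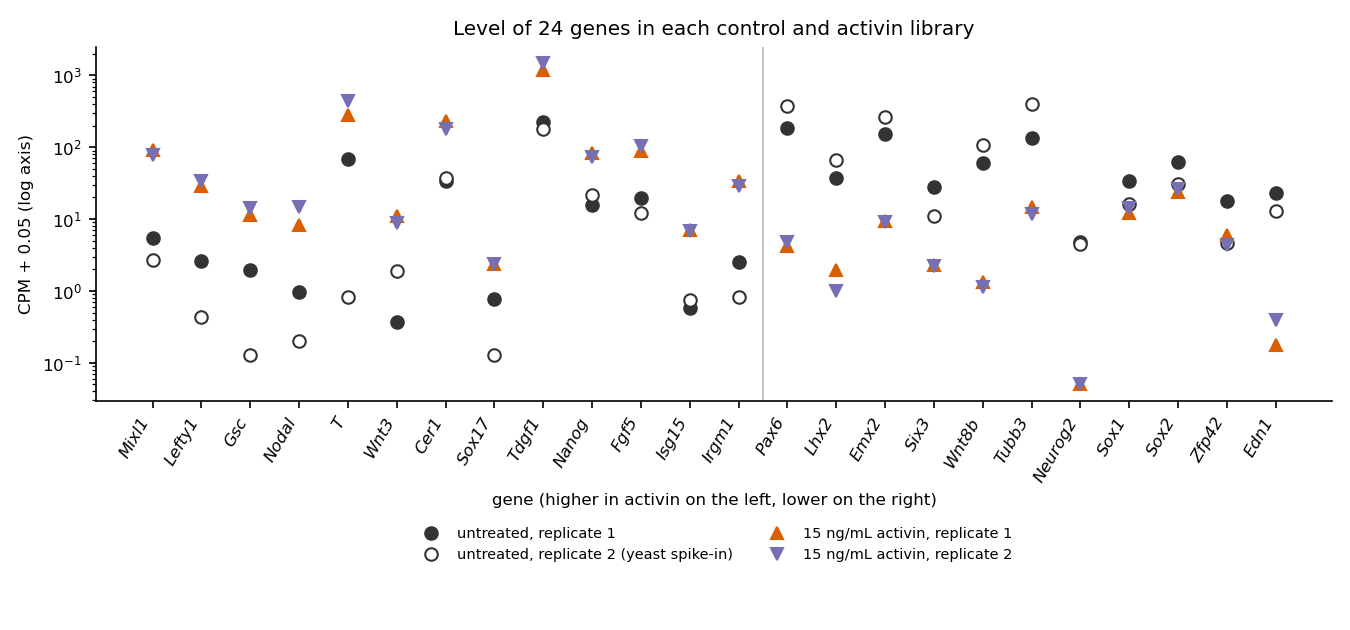
CPM plus 0.05 on a log axis for 24 genes in the control libraries (circles; open for replicate 2) and the activin libraries (triangles). Genes left of the grey line rose and genes right of it fell against control replicate 1; Mixl1 stands at 91.4 and 77.8 CPM with activin against 5.39 and 2.68 CPM, and Pax6 at 4.14 and 4.8 CPM against 185 and 370 CPM.

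Nodal, its secreted antagonists and several feedback inhibitors of the pathway were higher with activin. Of 22 genes on a list of Activin and Nodal targets and feedback genes, 18 passed the filter on low counts, 11 were called higher and 0 lower, against 7.51% and 6.6% of all genes. The same 2 shares stand beside the counts of every list below. Their median log2 change was 1.65, against 0.00 for all genes. Of the 11 genes called higher, Fgf8 passed the filter only through the activin libraries. Nodal, the embryonic ligand, had 0.909 and 0.153 CPM in the controls and 8.22 and 14.6 CPM with activin. Its change of 3.77 ± 0.44 (adjusted p = 3.3e-15) rests on 14 counts in control replicate 1 against 129 and 213. Lefty2, the second Lefty antagonist gene, had 5.2 and 15.2 CPM in the controls and 31.5 and 30.2 CPM with activin (2.70 ± 0.32). Cer1, which encodes the secreted antagonist Cerberus, went from 34 and 37.6 CPM to 230 and 181 CPM (2.72 ± 0.28, adjusted p = 5.0e-20). For all of these both activin libraries were above both controls. Fst, the gene of the activin-binding protein follistatin, rose by 2.66 ± 0.39, from 2.01 CPM to 11.9 and 11.5 CPM. Among intracellular and membrane inhibitors, Pmepa1, which takes Smads away from the receptor, rose by 3.14 ± 0.48, Smad7, the inhibitory Smad, by 1.56 ± 0.32 and Bambi, a decoy receptor, by 0.93 ± 0.34. Bambi stood at 9.43 and 9.32 CPM with activin, above control replicate 1 at 5.39 CPM but below control replicate 2 at 15.2 CPM. Skil, a further Smad repressor on the list, did not pass the filter. The 7 tested genes of the list that were not called had log2 changes between −0.79 and 0.72.

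Co-receptors and receptors moved less evenly. On a list of 17 receptors, co-receptors, convertases and Smads, 12 were tested, 4 were higher and 2 lower, and the median was −0.38 against control replicate 1 and 0.51 against control replicate 2. Tdgf1 and Foxh1 are on this list and the one above, and lists below share members too, so their counts are not independent. Tdgf1, the co-receptor Cripto, stood at 228 and 177 CPM in the controls and at 1182 and 1483 CPM with activin (2.68 ± 0.28, adjusted p = 6.2e-20). Cfc1, the related co-receptor Cryptic, rose by 1.27 ± 0.35 from 4.29 CPM to 7.84 and 11.1 CPM. Foxh1, the forkhead partner of the Smads, rose by 1.73 ± 0.31 from 6.5 CPM to 20.2 and 19.3 CPM, and Tgfbr3, the accessory receptor betaglycan, by 1.11 ± 0.27 (0.50 against control replicate 2). All 4 were above both controls. Smad2, a signal-carrying Smad, was called lower (−0.77 ± 0.23, adjusted p = 0.0109), yet its activin libraries read 91.4 and 167 CPM and lay either side of control replicate 2 at 128 CPM. Acvr2a, a type II activin receptor, fell by 0.75 ± 0.25 on the log2 scale, from 53.3 CPM to 29.4 and 28.6 CPM, with control replicate 2 at 43.5 CPM. The other 6 tested genes, type I and type II receptors and Smads among them, had changes between −0.58 and −0.15 and were not called. Acvr1c and Tgfbr2 had 0 counts in the control replicate 1 and activin libraries.

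The windows before the start sites of Cer1 and Tdgf1 are shown because both genes rose in both activin libraries and both windows hold the letters CAGAC, known as a Smad-binding element. Sequences are the 250 bases before the RefSeq start, 5′ to 3′ on the gene's strand in GRCm38.p6, with the match in capitals. The Cer1 window is chr4:82885152-82885401 on the minus strand, and its match begins at position −213. The Tdgf1 window is chr9:110946159-110946408 on the minus strand, with its match at −113.
Cer1: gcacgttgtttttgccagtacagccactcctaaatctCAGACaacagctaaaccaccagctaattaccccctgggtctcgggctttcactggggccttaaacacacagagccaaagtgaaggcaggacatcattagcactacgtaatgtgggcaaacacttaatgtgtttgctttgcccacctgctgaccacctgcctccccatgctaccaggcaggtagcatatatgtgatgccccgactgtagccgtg
Tdgf1: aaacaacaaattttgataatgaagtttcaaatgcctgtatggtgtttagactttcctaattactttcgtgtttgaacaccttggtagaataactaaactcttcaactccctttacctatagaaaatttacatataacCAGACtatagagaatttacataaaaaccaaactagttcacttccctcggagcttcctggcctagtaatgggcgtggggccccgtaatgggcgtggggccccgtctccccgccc
Shares are of genes with a RefSeq window of this length, and a match in any window of a gene counted. Searched on both strands, CAGAC was found for 45.8% of all such genes and 44.5% of tested ones. It was found for 48.5% of genes called higher and 43.1% of genes called lower. A match is a description of the letters. AATCCACA, the Foxh1 motif, was found for 0.862% of all such genes and 0.461% of tested ones. The shares were 0.462% of genes called higher and 0.701% of genes called lower. Of the 101 genes picked by rule, 72 had a RefSeq window.

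Genes of the primitive streak, the site where mesoderm and endoderm form, were higher as a group. Of 20 members 17 were tested, 11 were called higher and 0 lower, and the median log2 change was 2.22. All 11 lay above both control libraries, where 81.7% of all genes called higher lay above control replicate 2. Of the 11, 3 had fewer than 10 counts in control replicate 1 and so passed the filter only through the activin libraries. Wnt3, the ligand needed for the streak to form, had the largest change of the list at 5.04 ± 0.54 (adjusted p = 1.5e-18). It stood at 0.325 and 1.84 CPM in the controls, 5 and 24 counts, and at 11.1 and 8.91 CPM with activin. Wnt8a, a further streak Wnt ligand, had 0.65 and 0.46 CPM in the controls and 7.71 and 9.66 CPM with activin (3.85 ± 0.48). Rspo3, a secreted amplifier of Wnt signals, rose by 3.24 ± 0.31 from 5.98 CPM to 53.9 and 49.4 CPM. Control replicate 2 held 44.4 CPM of Rspo3, and a fit against that library alone gave −0.15. T, the T-box gene Brachyury, had 67.8 and 0.766 CPM in the controls and 278 and 446 CPM with activin (2.55 ± 0.28, adjusted p = 9.6e-18). Evx1, a posterior streak homeobox gene, went from 12.9 and 16.6 CPM to 87.5 and 59.7 CPM (2.64 ± 0.29). Neither group overlapped the other for T or Evx1. Among genes of the anterior streak, Lhx1, a LIM homeobox gene, rose by 2.11 ± 0.30 and Foxa2, a forkhead gene of endoderm and node, by 1.58 ± 0.31. Mesp1, a bHLH gene of the earliest mesoderm, rose by 3.07 ± 0.74 and Fgf8, a streak ligand, by 2.22 ± 0.62, on 4 and 8 counts in control replicate 1. Mesp1 had 1.20 against control replicate 2. Eomes, a T-box gene of the streak, had 5 counts in control replicate 1 against 22 and 16 and did not pass (2.05 ± 0.82, adjusted p = 0.0762).

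Definitive endoderm gives rise to gut, and its anterior part patterns the head. Of 21 members of the endoderm list 19 were tested, 11 were called higher and 1 lower, with a median log2 change of 1.29 (2.03 against control replicate 2). Sox17, a founding endoderm transcription factor gene, had 0.714 and 0.0766 CPM in the controls and 2.36 and 2.33 CPM with activin, and its change was 1.83 ± 0.58 (adjusted p = 0.0147). Hhex, a homeobox gene of anterior endoderm, stood at 5.59 and 8.04 CPM in the controls and at 15.4 and 17.7 CPM with activin (1.70 ± 0.32). Gata6, a zinc finger gene of endoderm and heart, went from 1.95 and 2.22 CPM to 5.1 and 6.85 CPM (1.74 ± 0.41). These 3 genes did not overlap between the groups, and 81.7% of all genes called higher also lay above control replicate 2. Foxa1 and Foxa3, forkhead genes of the endoderm, rose by 1.29 ± 0.46 and 1.47 ± 0.34 against control replicate 1, but control replicate 2 lay between or above the activin libraries for them. Trh, the thyrotropin-releasing hormone gene, rose by 1.48 ± 0.26 from 221 CPM to 642 and 491 CPM, with 330 CPM in control replicate 2. The epithelial members Epcam, Krt8 and Krt18 rose by 1.95, 1.12 and 1.71. Cxcr4, a chemokine receptor gene used to sort endoderm, was the member called lower (−0.81 ± 0.25, adjusted p = 0.0124). It read 44.9 CPM in control replicate 1, 18.1 and 28.4 CPM with activin and 4.44 CPM in control replicate 2, so its direction depended on the control. Otx2, a head organizer and forebrain gene, read 886 CPM in control replicate 1 and 714 and 830 CPM with activin (−0.07 ± 0.24), and its sign depended on the control. The 7 tested genes without a call had changes between −1.02 and 0.62.

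Mesoderm genes split. Of 19 members 12 were tested, 5 rose and 2 fell, and the median was 0.74 (1.56 against control replicate 2). Of the 5 rises, 2 had fewer than 10 counts in control replicate 1, and 1 of the 2 falls had fewer than 10 in both activin libraries. They passed the filter only through the group where they are high. Hand1, a bHLH gene of extraembryonic and lateral mesoderm, rose by 2.05 ± 0.61 on 9 counts against 39 and 29. Kdr, a VEGF receptor gene that marks vessel and blood precursors, went from 6.82 and 7.89 CPM to 18.9 and 18.2 CPM (1.57 ± 0.31), and Foxc1, a forkhead gene of paraxial mesoderm, rose by 1.54 ± 0.45. Both activin libraries were above both controls for each of these 3 genes. Dll3, a Notch ligand gene of the presomitic mesoderm, rose by 1.21 ± 0.26 from 29 CPM to 50.9 and 71.3 CPM. In contrast Dll1, the activating Notch ligand gene of somite and neural cells, had 9.03 and 5.9 CPM in the controls and 1.59 and 1.23 CPM with activin (−2.54 ± 0.38). Aldh1a2, the retinoic acid synthesis gene of trunk mesoderm, had 46 counts in control replicate 1 and 2 and 0 with activin. That is a 45.3-fold ratio, with an exact 95% interval for counting error from 11.8 to 385, but control replicate 2 also held only 2 counts. Meox1, Tbx6, Foxf1 and Hand2 did not pass the filter, and Pdgfra and Msgn1 had 0 counts in these 3 libraries.

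Neural progenitor genes had the lowest median change of the lists with at least 5 tested genes. Of 27 members on the list 26 were tested, 18 were called lower and 2 higher, and the median log2 change was −1.96. It was −0.99 against control replicate 2 alone and −1.22 with both controls. For 17 of the 18 both activin libraries also lay below control replicate 2, against 65.5% of all genes called lower. Of the 18, 3 had fewer than 10 counts in both activin libraries and so passed the filter only through the control. Pax6, a paired-box gene of forebrain and eye progenitors, had 185 and 370 CPM in the controls and 4.14 and 4.8 CPM with activin. Its change of −5.24 ± 0.26 (adjusted p = 1.9e-82) is 37.7-fold. Wnt8b, a Wnt ligand gene of the dorsal forebrain, went from 61.2 and 106 CPM to 1.27 and 1.1 CPM (−5.55 ± 0.31, adjusted p = 3.9e-66). Emx2, a homeobox gene of the cerebral cortex, stood at 153 and 264 CPM in the controls and at 9.49 and 8.98 CPM with activin (−3.92 ± 0.25). The controls were above both activin libraries for each of these genes. Fezf1 and Fezf2, zinc finger genes of the forebrain, fell by 5.80 and 4.59 on the log2 scale. Fezf1 had 162 and 189 counts in the controls against 3 and 2. Fezf2 stood at 58.8 and 3.98 CPM in the controls and at 1.78 and 2.67 CPM with activin, and its change against control replicate 2 was −1.20. Six3, an anterior homeobox gene, fell by 3.54 ± 0.31 from 28.3 and 11 CPM to 2.23 and 2.19 CPM, and Otx1, a forebrain homeobox gene, by 3.85 ± 0.31. Rax, the eye field homeobox gene, had 29 and 6 counts in the controls and 2 and 1 with activin, and Hes5, a Notch effector gene of neural progenitors, 92 and 7 counts against 3 and 5, so these falls were far smaller against control replicate 2. Hesx1, Lhx5 and Foxd4, further anterior or neural plate genes, had changes of −2.46, −2.53 and −3.19. The pan-neural Sox genes fell less: Sox1 by 1.23 ± 0.26, Sox2 by 1.18 ± 0.25, Sox3 by 1.37 ± 0.27 and Sox11 by 1.45 ± 0.23 on the log2 scale. Against control replicate 2 Sox1, Sox3 and Sox11 had −0.65, −0.27 and −0.78. Sox2 read 62.2 and 30.9 CPM in the controls and 24.1 and 26 CPM with activin. Zic1, a zinc finger gene of the neural plate, rose by 0.80 ± 0.26 and Nes, the neural progenitor filament gene nestin, by 0.76 ± 0.27. Nes at 39.9 and 26.8 CPM overlapped control replicate 2 at 27.4 CPM. The 6 tested genes without a call had changes between −0.62 and 1.19.

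Neuronal genes were lower in part. Of 26 members 13 were tested, 6 fell and 1 rose, and the median was −0.56. Against control replicate 2 alone the median of the same genes was 0.55, so the list's direction depended on the control. Of the 6 falls, 2 had fewer than 10 counts in both activin libraries and so passed the filter only through the control. Neurog2, a proneural bHLH gene, had 74 and 59 counts in the controls and 0 in both activin libraries, at least 48.5-fold lower than control replicate 1 with a floor of 3 counts over the activin pair. Gap43, a growth cone gene, fell by 1.55 ± 0.36 on the log2 scale and had −0.74 against control replicate 2. Map2, a neuronal microtubule gene, was called lower at −1.36 ± 0.47, while control replicate 2 had 0 counts of it. Nefl, the neurofilament light chain gene, was the member that rose, from 3.9 and 0.46 CPM to 21 and 18 CPM (2.45 ± 0.34, adjusted p = 3.4e-11). The other 6 tested genes had changes between −0.56 and 0.62 and no call. Dcx had 0 counts in control replicate 1 and the activin libraries. On the neural crest list, 7 of 13 were tested, 1 fell and 1 rose. The fall had fewer than 10 counts in both activin libraries and so passed the filter only through the control. Pax3, a paired-box gene of dorsal neural tube and crest, had 6.04 and 4.37 CPM in the controls and 0.255 and 0.343 CPM with activin (−4.18 ± 0.52). Erbb3 rose by 0.85 ± 0.31, and Sox10 did not pass the filter.

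**Figure D4:**
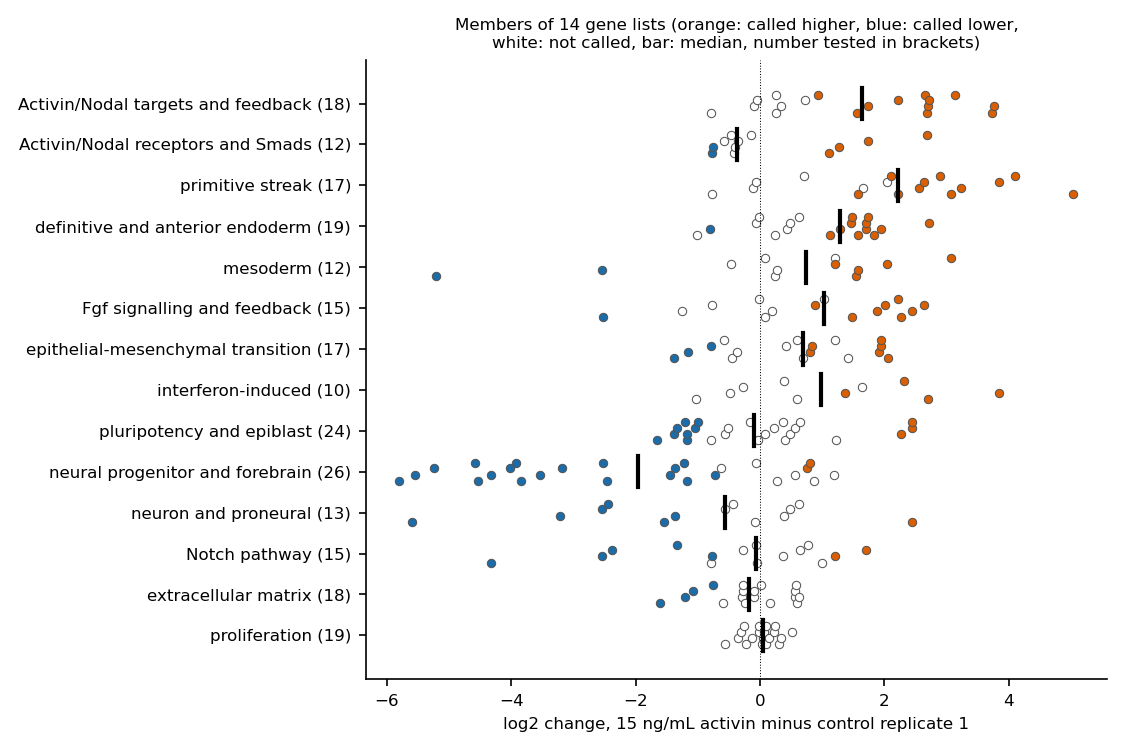
Log2 change against control replicate 1 of every tested member of 14 gene lists, with the number tested in brackets. Orange points rose, blue points fell, white points were not called and bars are medians; the Activin and Nodal target median is 1.65, the streak median 2.22 and the neural progenitor median −1.96, and Neurog2, at 0 counts with activin, is drawn at its bound.

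Pluripotency genes gave calls in both directions. Of 25 members 24 were tested, 3 rose and 8 fell, and the median was −0.10 (−0.58 with both controls). Pou5f1, which encodes Oct4, stood at 57.2 and 20.5 CPM in the controls and at 239 and 264 CPM with activin (2.27 ± 0.27, adjusted p = 9.3e-15). Nanog, a homeobox gene of pluripotent cells and the early streak, went from 15.7 and 21.3 CPM to 83.7 and 73.7 CPM (2.45 ± 0.28, adjusted p = 7.6e-16). Fgf5, a ligand gene of the primed epiblast, went from 19.6 and 12.3 CPM to 89.8 and 105 CPM (2.45 ± 0.28). Both activin libraries were above both controls for these 3 genes. Besides Sox2, the members that fell were Zfp42 by 1.66, Dppa2 by 1.38, Fbxo15 by 1.34, Dppa5a by 1.20, Dppa3 by 1.17, Klf2 by 1.04 and Tcl1 by 1.00 on the log2 scale, all known for their expression in embryonic stem cells. For Dppa2, Klf2 and Tcl1 both activin libraries were also below control replicate 2. Zfp42, Fbxo15 and Dppa3 had control replicate 2 between the activin libraries, and Dppa5a was above it. The 13 tested genes without a call had changes between −0.79 and 1.22, the highest being Utf1 at 1.22 ± 0.48 (adjusted p = 0.0723). Esrrb had 0 counts in these libraries.

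Fgf signalling genes were mostly higher. Of 19 members 15 were tested, 8 rose and 1 fell, and the median was 1.03. Of the 8 rises, that of Fgf8 passed the filter only through the activin libraries. Dusp6, a phosphatase gene that dampens ERK and is itself an ERK target, had 47.1 and 34 CPM in the controls and 274 and 263 CPM with activin (2.64 ± 0.28, adjusted p = 4.9e-19). Il17rd, which encodes the Fgf antagonist Sef, went from 134 and 172 CPM to 498 and 406 CPM (1.88 ± 0.27). Etv4 and Etv5, ETS factor genes downstream of Fgf, rose by 2.01 ± 0.30 and 0.88 ± 0.25, and Spry4, a feedback inhibitor, by 1.48 ± 0.28 (0.89 against control replicate 2). Every one of these feedback and target genes was above both controls. Fgf10, a ligand gene, rose by 2.27 ± 0.44. Fgfr2, a receptor gene, was the member that fell, from 8.12 and 22.1 CPM to 1.53 and 1.03 CPM (−2.53 ± 0.39). The 6 tested genes without a call had changes between −1.26 and 1.03, the highest being Spry2 at 1.03 ± 0.42.

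Of 18 genes on the epithelial-mesenchymal list 17 were tested, 6 rose and 3 fell. The rises were the epithelial genes Cldn6, Esrp1, Epcam, Cdh1 and Ocln and the matrix metalloprotease gene Mmp14, and since the list holds both kinds its median of 0.69 gives no direction. Cldn6, a tight junction claudin gene of early epithelia, stood at 1036 and 1488 CPM in the controls and at 3779 and 4082 CPM with activin (2.06 ± 0.26, adjusted p = 5.9e-13). Esrp1, an epithelial splicing factor gene, went from 81.3 and 29.6 CPM to 312 and 259 CPM (1.94 ± 0.27). Cdh1, which encodes E-cadherin, rose by 1.91 ± 0.27 from 98.5 CPM to 378 and 300 CPM, while control replicate 2 read 335 CPM and lay between them. Zeb1 and Zeb2, repressors of E-cadherin, fell by 1.39 ± 0.29 and 1.16 ± 0.26 on the log2 scale. Zeb2 was below both controls, whereas Zeb1 at 6.69 and 6.78 CPM was above control replicate 2 at 6.05 CPM. The fit against control replicate 2 gave −0.21 for Zeb1. Cdh11, a mesenchymal cadherin gene, fell by 0.79 ± 0.23 on the log2 scale and had 2.43 against control replicate 2. Snai1, the streak EMT factor gene, had 1.21 ± 0.48 (adjusted p = 0.0746), and the 8 tested genes without a call had changes between −0.58 and 1.42.

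Other signalling pathways gave calls in both directions, where 7.51% of all genes were called higher and 6.6% lower. Of the Wnt response genes and antagonists 13 of 19 were tested, 1 rose, which is near the share over all genes, and 4 fell. Apcdd1, a membrane Wnt inhibitor gene, went from 7.47 and 11.5 CPM to 0.892 and 0.411 CPM (−3.36 ± 0.44), and the secreted antagonist genes Sfrp1, Frzb and Sfrp2 fell by 1.28, 0.93 and 0.72 on the log2 scale. All 4 were below both controls. Tcf7, a nuclear Wnt effector gene, rose by 0.89 ± 0.25. Of the BMP list 13 of 17 were tested, 3 rose and 3 fell. Of the 3 rises, 1 passed the filter on low counts only through the activin libraries. Id2 and Id3, BMP target genes, fell by 1.24 ± 0.24 and 1.52 ± 0.34 on the log2 scale. Both were above control replicate 2 in CPM, but the fit against that library gave 1.64 for Id2 and −0.28 for Id3. The ligand gene Bmp5 fell by 1.62 ± 0.27. Bmp2, a further ligand gene, had 1 count in control replicate 1, 3 in control replicate 2 and 23 and 24 with activin, a 23.9-fold ratio with an exact 95% interval from 4.08 to 963. Chrd, the BMP antagonist gene chordin, rose by 1.51 ± 0.46.

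On the Notch list 15 of 16 were tested, 2 rose and 5 fell. Of the 5 falls, 1 passed the filter on low counts only through the control. Hes1, a Notch and general repressor gene, rose by 1.70 ± 0.26 from 63.1 and 17.2 CPM to 189 and 187 CPM, while its relative Hes5 fell, as given above. Lfng, a glycosyltransferase gene that tunes Notch receptors, fell from 22.3 and 51.6 CPM to 4.2 and 3.63 CPM (−2.38 ± 0.30). The 8 tested genes without a call had changes between −0.79 and 0.99. Of the retinoic acid genes 7 of 14 were tested, 2 rose and 3 fell. Of these, 1 rise and 1 fall passed the filter only through the group where they are high. Crabp1 and Crabp2, retinoic acid carrier genes, had changes of −2.81 ± 0.43 and −2.47 ± 0.23. Crabp2 stood at 184 CPM in control replicate 1 and at 30.3 and 30.6 CPM with activin, but at 8.43 CPM in control replicate 2, and against that library its change was 1.49. Cyp26a1, the retinoic acid breakdown gene, rose by 1.58 ± 0.39 against control replicate 1 and lay below control replicate 2.

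Axon guidance genes gave calls in both directions, and the matrix genes called were all lower. Of 29 axon guidance and ephrin genes 21 were tested, 5 rose and 5 fell, with a median of −0.31. The Eph receptor genes split: Epha2 went from 2.53 and 0.919 CPM to 16.4 and 19.1 CPM (2.94 ± 0.36) and Epha1 from 28.8 and 42.1 CPM to 166 and 118 CPM (2.43 ± 0.27). Epha7, a neural Eph receptor gene, fell from 221 and 121 CPM to 46.8 and 52.5 CPM (−2.02 ± 0.23), and Epha4 by 1.34 ± 0.23 on the log2 scale. None of these 4 receptor genes overlapped between the groups. Unc5b, a netrin receptor gene, rose by 1.95 ± 0.27 (0.65 against control replicate 2), and Sema3a, a repulsive guidance gene, fell by 2.52 ± 0.32 on the log2 scale. Of 20 matrix and integrin genes 18 were tested, 0 rose and 4 fell, namely Col1a2, Lama1, Nid1 and Col4a2, by 1.61, 1.21, 1.08 and 0.75 on the log2 scale. Nid1, the basement membrane linker gene nidogen, stood at 85.3 and 244 CPM in the controls and at 37.3 and 36.2 CPM with activin. Col4a2 was above control replicate 2.

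Of 16 members of a list of interferon-induced genes 10 were tested, and 4 of these rose, Isg15, Ifit1, Mx2 and Bst2, while 0 fell. No interferon was part of the labelled treatment. Isg15, Ifit1 and Mx2 had fewer than 10 counts in control replicate 1 and passed the filter only through the activin libraries, so the count of 4 is partly set by the filter. Isg15, a ubiquitin-like modifier gene, had 0.52 and 0.689 CPM in the controls and 7.07 and 6.72 CPM with activin (3.84 ± 0.51, adjusted p = 8.8e-12), on 8 and 9 counts against 111 and 98. Irgm1, an immunity-related GTPase gene that was not on the list and was picked as one of the largest rises, stood at 2.47 and 0.766 CPM in the controls and at 34 and 28.8 CPM with activin (3.79 ± 0.35, adjusted p = 1.5e-24). Both are among the largest rises, picked by a rule that asks for both controls on 1 side, so neither gene overlapped between the groups. Ifit1, an antiviral tetratricopeptide gene, had 4 and 0 counts in the controls and 21 and 27 with activin (2.71 ± 0.80). Mx2, of the antiviral Mx GTPase family but marked as a transcribed pseudogene in the RefSeq annotation, had 7 and 0 counts against 35 and 29 (2.32 ± 0.65). Bst2, which encodes tetherin, rose by 1.36 ± 0.34. B2m, the light chain of MHC class I and a member of the reference gene list, rose by 1.63 ± 0.26 from 42.7 and 6.28 CPM to 112 and 129 CPM. The 6 tested genes without a call had changes between −1.03 and 1.64. Mx1 had 0 counts in these libraries.

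The guanylate-binding protein and immunity-related GTPase families were counted after Irgm1 and Gbp2b had been seen among the largest rises, so their count is a description. Of 17 family genes 8 were tested and these 8 were called higher, 3 of them (Gbp2b, Gbp3 and Gbp9) with fewer than 10 counts in control replicate 1, so that they passed the filter only where they are high. The other 9 had 0 to 7 counts in each of the control and activin libraries. Gbp2 went from 21 and 16 counts in the controls to 204 and 167 with activin (3.28 ± 0.41), Gbp2b from 8 and 4 counts to 121 and 73 (3.72 ± 0.52) and Gbp3 from 4 and 0 counts to 35 and 54 (3.60 ± 0.67). Irgm2 had 218 and 182 counts in the controls and 846 and 560 with activin (1.83 ± 0.28). Igtp and Gbp4 rose by 1.57 ± 0.48 and 2.31 ± 0.51, and Gbp9 had 0 counts in control replicate 1, 4 in control replicate 2 and 15 and 10 with activin. Both activin libraries lay above both controls for all 8. Members of these families are similar in sequence, and reads shared between copies may be missing or misplaced. The immunoproteasome subunit genes Psmb8 and Psmb9, also picked after their values were seen, rose by 2.58 ± 0.67 and 1.50 ± 0.41 against control replicate 1, with Psmb9 at −0.16 against control replicate 2.

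The windows of Isg15, Irgm1, Ifit1 and Gbp2 are shown because these genes rose together and each window holds GAAA, any 2 bases and GAAA again, the core of the interferon-stimulated response element. They are again the 250 bases before the RefSeq start in GRCm38.p6, 5′ to 3′ on the gene's strand, with matches on either strand in capitals. The Isg15 window, chr4:156200819-156201068 on the minus strand, holds 3 overlapping matches from −78. The Irgm1 window, chr11:48871421-48871670 on the minus strand, holds 2 overlapping matches from −30. The Ifit1 window, chr19:34640639-34640888 on the plus strand, holds 2 matches at −104 and −85, and the Gbp2 window, chr3:142620413-142620662 on the plus strand, 1 match at −59.
Isg15: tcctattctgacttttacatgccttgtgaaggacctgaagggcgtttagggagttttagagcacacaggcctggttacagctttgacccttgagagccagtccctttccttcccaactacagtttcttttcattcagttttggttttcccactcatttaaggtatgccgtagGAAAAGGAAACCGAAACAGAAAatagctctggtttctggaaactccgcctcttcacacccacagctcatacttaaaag
Irgm1: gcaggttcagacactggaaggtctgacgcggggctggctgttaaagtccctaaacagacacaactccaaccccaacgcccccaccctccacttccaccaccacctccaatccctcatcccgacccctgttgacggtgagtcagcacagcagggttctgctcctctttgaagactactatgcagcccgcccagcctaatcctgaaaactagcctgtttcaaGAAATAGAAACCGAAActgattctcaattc
Ifit1: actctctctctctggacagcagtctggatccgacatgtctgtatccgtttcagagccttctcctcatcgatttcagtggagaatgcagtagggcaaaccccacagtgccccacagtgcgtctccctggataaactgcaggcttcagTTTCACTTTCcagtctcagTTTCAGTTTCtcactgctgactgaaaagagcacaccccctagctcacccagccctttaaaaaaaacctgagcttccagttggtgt
Gbp2: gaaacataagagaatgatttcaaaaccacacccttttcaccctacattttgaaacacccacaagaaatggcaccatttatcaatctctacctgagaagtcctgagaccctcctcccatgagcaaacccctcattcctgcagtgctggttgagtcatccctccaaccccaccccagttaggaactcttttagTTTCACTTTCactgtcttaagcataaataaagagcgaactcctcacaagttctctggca
This pair of GAAA words was counted by gene as before, on either strand. It was found for 3.46% of all genes with a window and 2.87% of tested ones. The shares were 4.16% of genes called higher and 3.15% of genes called lower. Among the 8 guanylate-binding protein and immunity-related GTPase genes called higher, 6 had a window and 6 of these held the motif. A match is again a description of the letters, and a part of interferon signalling in these rises was not tested.

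Large changes outside the lists were picked by rule, as the largest rises and falls that lay on 1 side of both controls and had a mean of at least 50 counts where higher. Nt5e, a cell surface enzyme gene that makes adenosine, went from 0.974 and 0.766 CPM to 16.6 and 14.9 CPM (4.13 ± 0.43, adjusted p = 9.7e-20). Brinp1, a gene of the nervous system, had 2.92 and 6.44 CPM in the controls and 28.8 and 26.5 CPM with activin (3.37 ± 0.34), and Tmem154, a membrane protein gene, 0.974 and 0.919 CPM against 10.1 and 11 CPM (3.56 ± 0.44). Slitrk3, a synaptic adhesion gene, had 2 and 1 counts in the controls and 68 and 45 with activin, a 28.7-fold ratio against control replicate 1 with an exact 95% interval from 7.77 to 240. By the rule of the choice none of these overlapped between the groups, and Slitrk3 passed the filter on low counts only through the activin libraries. Among the falls, Edaradd, the adaptor gene of the ectodysplasin receptor, had 229 and 271 counts in the controls and 3 and 1 with activin (−6.61 ± 0.50, adjusted p = 3.6e-36). Edn1, the endothelin-1 gene, had 358 and 169 counts against 2 and 5 (−6.47 ± 0.44). Lmx1a, a LIM homeobox gene of the roof plate, had 206 and 111 counts against 4 and 6 (−5.18 ± 0.44). Wnt1, a Wnt ligand gene of the dorsal midbrain, had 78 and 14 counts in the controls and 2 and 1 with activin, a 51.2-fold ratio with an exact 95% interval from 16.9 to 253. Frrs1l, Gdf10, Ndnf and Slitrk6 had 55 to 59 counts in control replicate 1 and 3 in all with activin, ratios between 36.1 and 38.7. By the rule of the choice, every one of these 8 genes was lower in both activin libraries than in both controls. All 8 had fewer than 10 counts in each activin library, so they passed the filter on low counts only through the control.

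Lists for other cell types held between 0 and 3 calls each, and 14.1% of all tested genes were called in either direction. Trophoblast had 1 higher and 0 lower of 6 tested (12 members), with Elf5, Tfap2c, Tpbpa and Prl3d1 at 0 counts, and its summed level was 25.6 CPM in control replicate 1 and 26.2 and 22.3 CPM with activin. The gene called higher, Hand1, passed the filter on low counts only through the activin libraries. Blood and endothelium had 0 calls of 5 tested (15 members), with Runx1 and Lmo2 at 0 counts, and summed to 5.46 CPM in control replicate 1 and 6.18 and 5.14 CPM with activin. Extraembryonic endoderm had 1 higher and 1 lower of 10 tested (17 members), with Ttr, a carrier gene of visceral endoderm, up by 1.11 against control replicate 1 but below control replicate 2. Surface ectoderm had 3 higher of 5 tested (12 members): the epithelial genes Krt8, Krt18 and Grhl2. Trp63 and Krt14, its defining genes, were at 0 counts. A count of 0 is not read as absence of a gene or cell type, here or above. Rara, Rarg and Trim33 also had 0 counts in every library of the dose set, and whether the primers reach each transcript was not tested. Of 7 tested germ cell genes (11 members) Prdm1, also a gene of anterior endoderm, rose by 1.28 ± 0.31 and Dppa3 fell. Of 24 Hox genes 1 passed the filter and it was not called.

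Proliferation genes did not move past the test. Of 20 members 19 were tested, 0 were called in edgeR (2 at unadjusted p under 0.05) and the median was 0.05, with Mki67 at 814 CPM in control replicate 1 and 656 and 600 CPM with activin. Glycolysis had 2 higher and 1 lower of 15 tested (17 members) and p53 targets 1 higher of 12 (13 members). Over all genes 7.51% were higher and 6.6% lower. The medians of these lists were −0.05 and 0.20 (1.42 and 0.84 against control replicate 2). Of 10 tested stress genes (18 members) 3 rose and 1 fell. Atf3, a stress-induced transcription factor gene, rose by 1.55 ± 0.35 and Gadd45a, a growth arrest gene, fell by 1.04 ± 0.31 on the log2 scale and had 1.19 against control replicate 2. Imprinted genes had 1 higher and 4 lower of 11 tested (15 members). Mest, an imprinted gene of mesoderm and of embryonic growth, stood at 1033 and 539 CPM in the controls and at 194 and 142 CPM with activin (−2.49 ± 0.23, adjusted p = 3.5e-24), and Peg3 rose by 1.61 ± 0.26 but lay below control replicate 2. Of 13 tested reference genes (15 members) 4 rose and 1 fell: Gapdh by 1.13, Hprt by 1.41, B2m by 1.63 and Actb by 0.67 rose, and Tfrc fell by 0.85 on the log2 scale, but against control replicate 2 alone Actb had −1.37 and Tfrc 0.36. The part of library preparation in these was not tested. Ribosomal protein genes took 8.56% of counts in control replicate 1, 5.13% in control replicate 2 and 9.32% and 10.6% with activin.

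The dose of 15 ng/mL was also set against the mean of its neighbours, 3 and 100 ng/mL, with 1 library each. The fit held 6 libraries, without control replicate 2. The p-values of this comparison measure the difference against the spread of the 15 ng/mL technical pair. The single neighbouring libraries were assumed to vary like that pair. A deviation of 1 sample therefore cannot be told apart from an effect of dose. Of 12076 genes tested, 117 (0.969%) were higher and 43 (0.356%) lower at 15 ng/mL than that mean. Nanog was the member of the pluripotency list called here. It read 32.1 CPM at 3 ng/mL, 83.7 and 73.7 CPM at 15 ng/mL and 26.2 CPM at 100 ng/mL, and was higher by 1.46 ± 0.21 (adjusted p = 1.8e-07). Both libraries at 15 ng/mL were above both neighbouring doses. Irgm1 had 5.22, then 34 and 28.8, then 19.2 CPM over these doses (1.67 ± 0.24, adjusted p = 9.0e-08), also highest at 15 ng/mL. Msi1, the RNA-binding protein gene Musashi of neural progenitors, had 27.8, then 68.3 and 98.1, then 19.6 CPM (1.86 ± 0.21), with 173 CPM in control replicate 1 and 0.536 CPM in control replicate 2. Fmnl3, a formin gene, Cdkn2a, a cell cycle inhibitor gene, and Ramp3, a receptor accessory gene, were higher by 2.12, 1.68 and 1.55. Nefl and Atf3 were higher by 1.08 and 1.24, and both libraries exceeded both neighbours. Mixl1 was higher by 0.74 (adjusted p = 0.0378) although it stood at 143 CPM at 100 ng/mL, since the comparison is with the mean of the log levels.

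Lower at 15 ng/mL than at both neighbours were Ndufb2, a respiratory complex I subunit gene, at 95.6, then 34.9 and 42.5, then 148 CPM (−1.59 ± 0.21, adjusted p = 3.3e-09), and Msx2, a BMP-responsive homeobox gene, at 14.6, then 5.93 and 7.33, then 18.4 CPM (−1.28 ± 0.25). Tubb3, at 42.4, then 14.6 and 11.6, then 17.9 CPM, was lower by 1.05, and Frem1 and Adgrf5 had differences of −1.45 and −1.35. Pilra had a difference of −1.65, but its level at 15 ng/mL lay just under that at 3 ng/mL (1.91 and 1.51 against 2.04 CPM). With all 7 libraries in the fit 0 genes passed in edgeR (23 at unadjusted p under 0.05) and 0 in DESeq2, and DESeq2 on the 6 libraries called 19 higher and 5 lower.

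**Figure D5:**
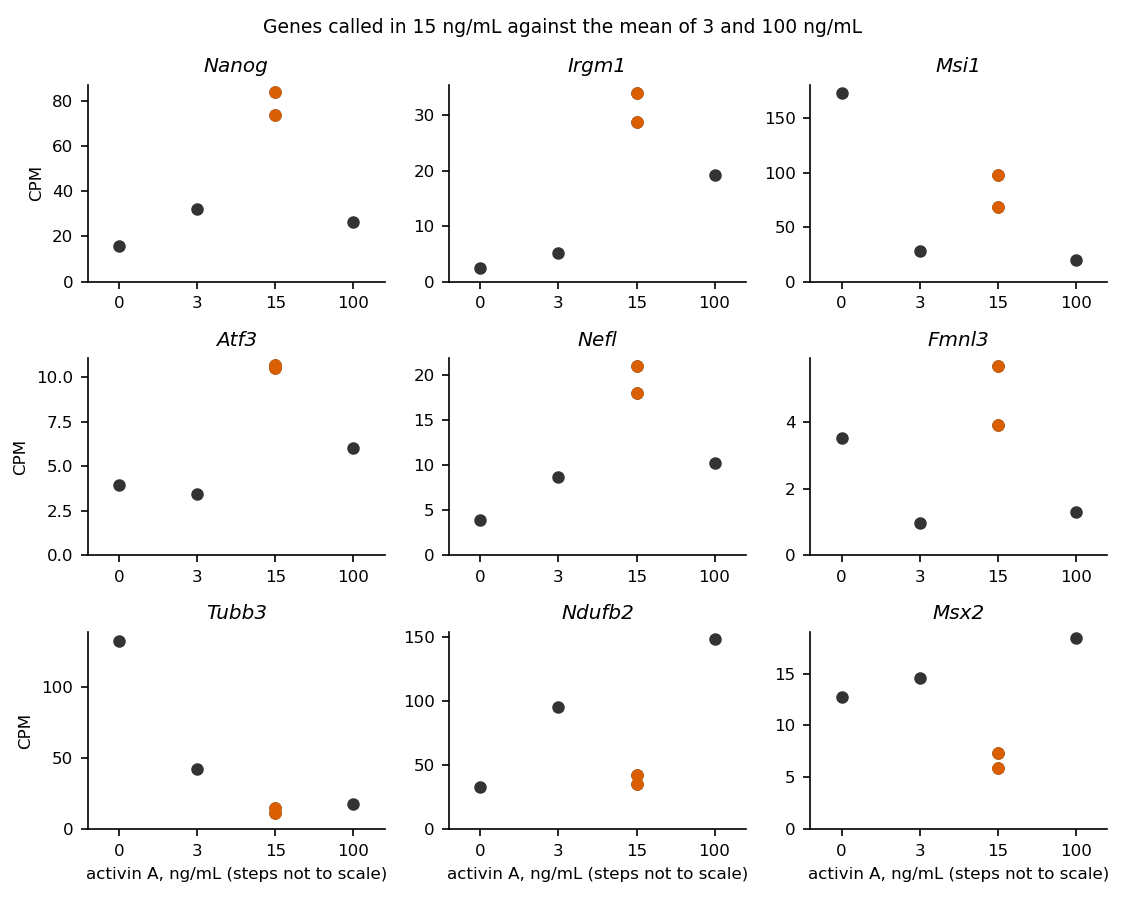
CPM of 9 genes called in 15 ng/mL activin against the mean of 3 and 100 ng/mL, by activin dose in ng/mL (steps not to scale); 0 is control replicate 1, and the orange points are the 2 libraries at 15 ng/mL. Nanog peaks at 83.7 and 73.7 CPM at 15 ng/mL against 32.1 and 26.2 CPM at 3 and 100 ng/mL, and Ndufb2 dips to 34.9 and 42.5 CPM.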

How the data were processed

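The deposited files hold unique read counts for 26566 RefSeq transcripts, not normalized by the authors per the file headers. The aligner, genome build, RefSeq release, counting rule and use of strand are, for these libraries, not given in the sources used here. Overlapping or antisense genes and near-identical copies may share reads. Symbols came from the RefSeq table for 25857 transcripts and from GENCODE for 150, 559 had none, and counts were summed over 21844 genes, 3080 of them with more than 1 transcript. The other 26 libraries of the series were not used.

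The main test was edgeR 4.0.16 (limma 3.58.1, R 4.3.3) with a robust quasi-likelihood fit and TMM scaling, on control replicate 1 and both activin libraries. Genes passed filterByExpr with a minimum count of 10 and a total of 15, and p-values were adjusted by Benjamini-Hochberg over all genes tested, with 0.05 as threshold. This left 1 residual degree of freedom, with spread shared across genes. The alternatives were other control sets, a replicate block, DESeq2 1.42.0, other size factors, no filter and the transcript with the most reads. Each replicate was also left out. On simulated counts the main fit recovered 52.2% of 2-fold and 98.5% of 4-fold changes. The simulation gave the control the same spread as the activin pair, so it cannot show whether the control varies like that pair. Tables and figures used Python 3.11.15, pandas 2.3.3, numpy 2.4.6 and matplotlib 3.10.9.

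The rule picked the 5 markers, up to 4 called members of each of 30 gene lists, and the 12 largest rises and falls. These rises and falls lay on 1 side of both controls and had a mean of at least 50 counts where higher. Unnamed models, pseudogenes and ribosomal protein genes were left out of them. Some picked list members are not named elsewhere in the text, among them Dhrs3, Pmaip1, Jun, Dusp1, Ndn, Sgce, Pdk1 and Slc2a3. The text also names 5 genes each way for the dose comparison, further list members by value, and a few genes described as chosen after their values were seen. Members and lists were chosen with earlier results of these data known. Exact 95% intervals and the floor of 3 counts cover counting error only.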

Additional observations from a re-analysis of the deposited data

How the results depend on the processing

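Against control replicate 2 alone, where the median change of all genes was 0.18, 4140 genes were called higher and 3601 lower, and 1017 of the 1644 calls (61.9%) were shared in direction. These genes changed sign: Actb −1.37, Bambi −1.06, Cdh1 −0.35, Cdh11 2.43, Col4a2 0.07, Crabp2 1.49, Cxcr4 2.03, Cyp26a1 −0.94, Dppa5a 0.61, Foxa1 −0.37, Foxa3 −0.89, Gadd45a 1.19, Id2 1.64, Map2 7.03, Nes −0.09, Otx2 3.57, Peg3 −0.86, Psmb9 −0.16, Rspo3 −0.15, Tfrc 0.36 and Ttr −0.92. The neuron median became 0.55. Other medians that moved were 2.32 for Activin and Nodal targets, 0.51 for their receptors and Smads, 2.51 for streak, 2.03 for definitive endoderm, 1.56 for mesoderm, −0.99 for neural progenitors, −0.19 for pluripotency, 0.27 for extraembryonic endoderm, 1.91 for trophoblast, −0.96 for blood, 1.43 for neural crest, 1.91 for surface ectoderm, 0.00 for germ cells, 1.07 for BMP, −0.42 for Wnt, 1.46 for Fgf, −0.38 for Notch, 1.04 for the epithelial-mesenchymal list, −0.17 for axon guidance, 0.17 for proliferation, 1.42 for glycolysis, 0.84 for p53 targets, 1.52 for stress, 1.05 for imprinted genes and 0.41 for reference genes.

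With both control libraries and no replicate block, edgeR called 0 higher and 0 lower (657 at unadjusted p under 0.05). The markers then had 4.31 (Mixl1), 4.42 (Lefty1), 3.73 (Gsc), −5.38 (Lhx2) and −4.63 (Tubb3), none of them called. Signs changed for Actb −0.71, Bambi −0.40, Cdh11 0.06, Cyp26a1 −0.19, Foxa3 −0.16, Otx2 0.81, Peg3 −0.12 and Ttr −0.26. Medians moved to 1.71 for Activin and Nodal targets, 0.12 for receptors and Smads, 0.89 for definitive endoderm, 1.16 for mesoderm, −1.22 for neural progenitors, −0.58 for pluripotency, −0.43 for blood, 0.91 for surface ectoderm, −0.30 for Wnt, −0.18 for Notch, 0.10 for retinoic acid, 0.17 for the epithelial-mesenchymal list, −0.23 for axon guidance, 0.34 for glycolysis, 0.53 for p53 targets and 0.68 for interferon-induced genes. Leaving out activin replicate 1 or 2 from that fit also gave 0 and 0 (200 and 170 at unadjusted p under 0.05), with Mixl1 at 4.25 and 4.42, Lefty1 at 4.59 and 4.30, Gsc at 3.94 and 3.58, Lhx2 at −5.90 and −4.96 and Tubb3 at −4.74 and −4.46, all below the threshold. Signs changed without replicate 1 for Actb −0.84, Bambi −0.35, Cdh11 0.35, Cxcr4 0.31, Cyp26a1 −0.36, Foxa3 −0.19, Map2 0.03, Otx2 0.96, Peg3 −0.12 and Ttr −0.22, and without replicate 2 for Actb −0.52, Bambi −0.39, Foxa3 −0.07, Otx2 0.68, Peg3 −0.04 and Ttr −0.22.

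The groups share the replicate numbers 1 and 2 and nothing else that would pair them, and the deviations of same-numbered libraries correlated at −0.26 over 11235 genes. A fit with the replicate number as a block called 0 higher and 10 lower (592 at unadjusted p under 0.05), namely Dbx1, Edaradd, Edn1, Fezf1, Lhx2, Lmx1a, Neurog2, Pax6, Sorcs3 and Wnt8b. The markers that missed the threshold under the block had 4.33 (Mixl1), 4.73 (Lefty1), 4.31 (Gsc) and −4.28 (Tubb3), and signs changed for Actb −0.37, Bambi −0.09, Cdh11 0.77, Cxcr4 0.53, Gadd45a 0.02, Id2 0.17, Map2 0.65 and Otx2 1.73. A crossed pairing, chosen after seeing the data, called 0 and 0 (648 at unadjusted p under 0.05), with 4.33, 4.73, 4.32, −5.31 and −4.28 for Mixl1, Lefty1, Gsc, Lhx2 and Tubb3. It changed the signs of Actb −0.37, Bambi −0.09, Cdh11 0.77, Cxcr4 0.53, Gadd45a 0.02, Id2 0.17, Map2 0.67 and Otx2 1.73.

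DESeq2 called 393 higher and 226 lower with control replicate 1, and 48 and 122 with both controls, where signs changed for Actb −0.75, Bambi −0.45, Cdh11 0.08, Cxcr4 0.01, Cyp26a1 −0.24, Foxa3 −0.21, Otx2 0.84, Peg3 −0.17 and Ttr −0.30. All 7 libraries of the dose set in edgeR gave 0 and 0 (702 at unadjusted p under 0.05), with markers at 4.33, 4.43, 3.74, −5.36 and −4.60 in the same order and changed signs for Actb −0.67, Bambi −0.37, Cdh11 0.07, Cyp26a1 −0.16, Foxa3 −0.13, Otx2 0.82, Peg3 −0.08 and Ttr −0.22. In the dose comparison DESeq2 called 19 higher and 5 lower, all 7 libraries gave 0 and 0 in edgeR (23 at unadjusted p under 0.05), and 0 and 0 in DESeq2 (9). The 2 DESeq2 fits that include control replicate 2 were chosen after seeing the data. Without activin replicate 1 or 2, and with control replicate 1 alone, no residual degree of freedom was left and no test could be made, and Otx2 ran from −0.21 to 0.07. The 6-library fit (840 higher, 730 lower), the other size factors (849, 764), no filter on low counts (866, 728) and the transcript with the most reads (877, 770) stayed within 1.5 times of the reported counts. The cause of these differences was not tested.

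A gene at 0 counts in both activin libraries was given a limit of 3 counts over the pair, and changes that rest on few control counts have wide errors. With control replicate 1 alone the p-values measure spread between the activin technical replicates, the fits with both controls also take in the spread between the control libraries, and spread between independent cultures was not measured.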
